A study of Drosophila melanogaster with 20 samples.

Results

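H3K27me2, the dimethylated form of lysine 27 on histone H3, was compared between salivary glands of SuUR mutant larvae and of wild type (y,w) larvae. The comparison covered every 50 kb window that the H3K27me2 profiles of both genotypes hold, which gave 27611 windows, out of 55242 windows for the H3K27me2 and H3K27me3 profiles together. Of these, 23676 lie on the arms 2L, 2R, 3L, 3R and X, 255 on chromosome 4, and 3680 on the 7 scaffolds 2LHet, 2RHet, 3LHet, 3RHet, XHet, YHet and U, which hold unplaced or heterochromatic sequence. Windows start every 5 kb, so neighbouring windows share most of their sequence. Each value is log2 of the ChIP signal over the input signal, both as RPM (reads scaled to library size), at dm3 coordinates. The difference is given throughout as wild type minus SuUR, so that a positive value means more H3K27me2 in wild type.

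The series holds 20 libraries, 12 from embryos and 8 from salivary glands. The glands came from larvae of the third instar, of a SuUR mutant stock and of the y,w control, both raised at 23 °C, with 20 pairs of glands per chromatin preparation according to the labels. Chromatin was precipitated with the Millipore #07-452 antibodies against H3K27me2, with 1 ChIP library and 1 input library for each genotype. The experiment asked whether the effect of the SuUR mutation on H3K27 methylation, seen earlier with antibodies that also bind some dimethylated histone, concerned H3K27me2. With 1 profile per genotype there is no replicate check, so no p-value is given, and the spread among windows is a spread along the chromosomes, not an error of the genotypes. The profiles hold no read counts, which leaves depth and counting error unknown, and the mutation itself cannot be checked from these values.

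H3K27me2 is placed by Polycomb repressive complex 2, whose catalytic subunit in Drosophila is E(Z), and the same enzyme adds the further methyl group that makes H3K27me3. H3K27me2 is spread broadly over inactive chromatin, whereas high H3K27me3 marks Polycomb-repressed domains. Salivary glands contain giant polytene chromosomes, in which late-replicating chromatin stays at lower copy number. SUUR, the product of Suppressor of Underreplication, is a chromatin protein that slows replication forks there, and its loss largely restores the copy number.

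On the arms H3K27me2 was centred near 0 in both genotypes, with 10th and 90th percentiles of −0.325 and 0.28 in SuUR and −0.32 and 0.27 in wild type. Medians on the 5 arms lay between −0.005 and 0.015 in SuUR glands, and between 0.005 and 0.01 in wild type glands. Over all arm windows the difference averaged 0.00028 with an SD of 0.228 over windows, and 50.02% of windows were higher in wild type. The signs were therefore almost evenly split. Quantile normalization forces the values of both genotypes into one distribution over all windows, so a change of H3K27me2 shared by the whole genome cannot be seen in these profiles.

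No single arm stood apart in its average. The mean difference was −0.015 on 2L, 0.0041 on 2R, 0.010 on 3L, 0.0032 on 3R and −0.0021 on X, each far below the SD of its own windows. The share of windows higher in wild type ran between 48.1% on 2L and 51.5% on 2R. Windows of 2L also had the largest SD of the arms at 0.249, and the correlation of the SuUR and wild type profiles was lowest there (r = 0.44 across 4542 overlapping windows), against 0.59 on 2R. Across all 23676 arm windows r was 0.53. These correlations describe overlapping windows of single profiles and carry no p-value.

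Chromosome 4, a small and largely heterochromatic chromosome, had a median of 0.02 in SuUR glands and −0.04 in wild type glands. Its 255 windows differed by −0.037 on average (SD 0.239), with 44.3% of windows higher in wild type. This offset was far smaller than the SD of its windows.

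**Figure D1:**
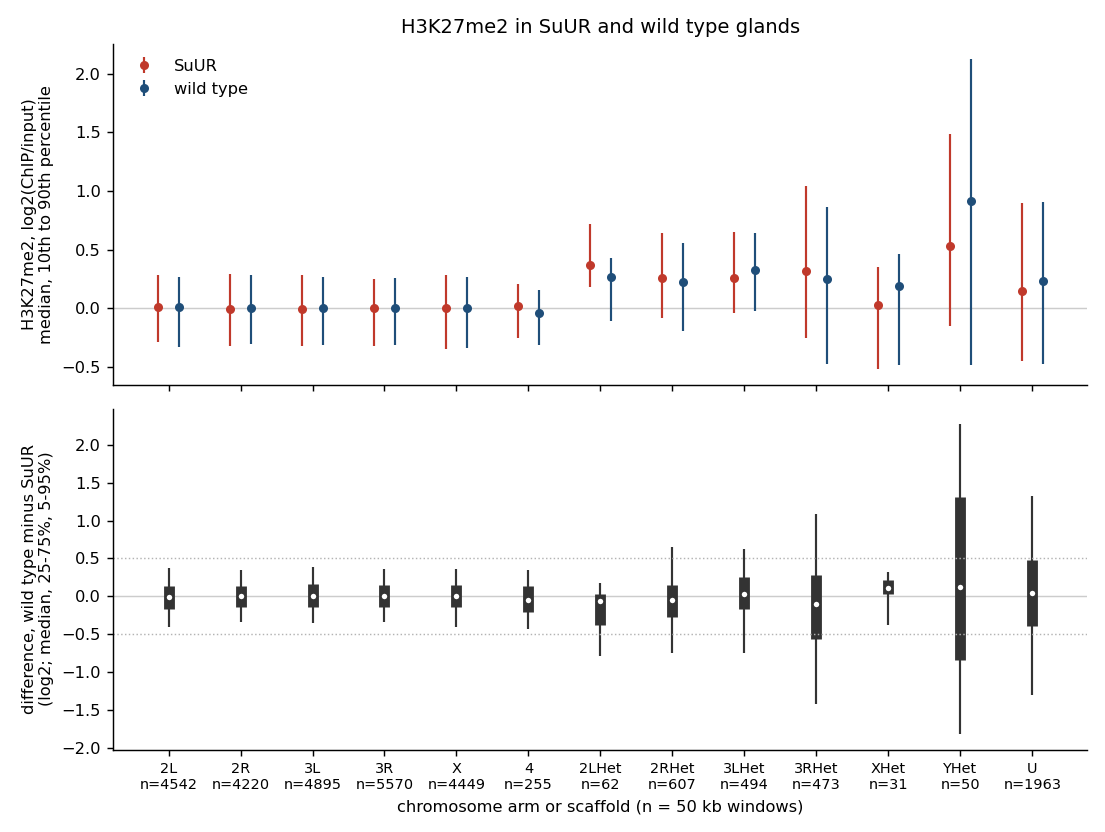
Upper panel, median H3K27me2 (log2 of ChIP over input) with the 10th to 90th percentile of windows for SuUR (left point) and wild type (right point); lower panel, the difference wild type minus SuUR with its median, quartiles and 5th to 95th percentile, per arm or scaffold. Medians on the arms lie near 0 in both genotypes, while the difference spreads widely on 3RHet, YHet and U; dotted lines mark 0.5 in size.

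The scaffolds carried more H3K27me2 than the arms in both genotypes, with a median of 0.235 in SuUR glands and 0.26 in wild type glands. Their differences were much wider: the SD over windows was 0.735, against 0.228 on the arms, and the profiles of the genotypes barely followed each other (r = 0.17 across 3680 windows). The mean difference was 0.00079, and 49.5% of windows were higher in wild type, so here too the signs were balanced. Many reads from these repeat-rich sequences match several places, and the part that this plays in the spread was not tested.

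Individual scaffolds leaned in different directions. H3K27me2 averaged lower in wild type on 2LHet (−0.18, SD 0.322, 62 windows), 3RHet (−0.15, SD 0.796, 473 windows) and 2RHet (−0.045, SD 0.467, 607 windows). It averaged higher in wild type on U (0.043, SD 0.822, 1963 windows), 3LHet (0.025, SD 0.457, 494 windows), XHet (0.088, SD 0.207, 31 windows) and YHet (0.27, SD 1.42, 50 windows). None of these means exceeded the SD of the scaffold's own windows. XHet was the exception in the shape of its profile: 83.9% of its windows were higher in wild type, and the profiles of SuUR and wild type followed each other closely (r = 0.86). On YHet the profiles ran against each other (r = −0.36), with a median of 0.535 in SuUR glands and 0.9125 in wild type glands. With 31 and 50 overlapping windows, XHet and YHet hold little independent sequence.

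Differences of 0.5 or more in size on the log2 scale, a 1.41-fold difference in ChIP over input, were rare on the arms. They were found in 394 arm windows higher in SuUR (1.66%) and 310 higher in wild type (1.31%). On chromosome 4, 6 windows (2.35%) were higher in SuUR and 3 (1.18%) in wild type. On the scaffolds 690 windows (18.8%) were higher in SuUR and 663 (18%) in wild type. The arms, chromosome 4 and the scaffolds each held such windows in both directions, and in each total somewhat more were higher in SuUR. Single arms differed. On 2L 2.64% of windows were past 0.5 and higher in SuUR, and 1.48% higher in wild type. The shares were 2.07% and 1.01% on X and 1.30% and 0.88% on 2R. On 3L (1.61% and 1.84%) and 3R (0.86% and 1.27%) the order was reversed. U (20.7% and 24.5%), 3LHet and YHet also held more windows higher in wild type, whereas 2LHet, 2RHet, 3RHet and XHet held fewer.

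Most of these arm windows crossed the middle of the distribution. Of the windows higher in SuUR, 320 of 394 (81.2%) lay above the arm median in SuUR glands and below it in wild type glands, with medians of 0.325 in SuUR and −0.275 in wild type. Of the windows higher in wild type, 251 of 310 (81.0%) lay below the median in SuUR glands and above it in wild type glands, with medians of −0.265 in SuUR and 0.3275 in wild type. Such crossing is largely set by choosing windows for a difference of this size in profiles centred near 0, so it is given as a description.

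Windows past 0.5 were mostly scattered. Consecutive windows past the threshold with one sign formed 162 runs higher in SuUR and 129 runs higher in wild type on the arms, of which 79 higher in SuUR and 71 higher in wild type were single windows. Runs of 5 or more windows numbered 21 higher in SuUR and 19 higher in wild type. A run of 11 windows is the shortest whose first and last windows share no sequence, and the arms held 1 such run higher in SuUR and 2 higher in wild type. The scaffolds, with far fewer windows, held 15 higher in SuUR and 16 higher in wild type.

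The reach of the difference along the arms was that of the window itself. The correlation of the difference between windows was 0.89 for centres 5 kb apart, which share 90% of their sequence, 0.49 at 25 kb (50% shared) and 0.19 at 40 kb (20% shared). At 50 kb, where windows share nothing, it was −0.011, and between 50 kb and 1000 kb it stayed between −0.054 and 0.025. H3K27me2 itself reached further, with a correlation at 50 kb of 0.17 in the SuUR profile and 0.26 in the wild type profile.

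The H3K27me3 difference, measured in the same tissue and genotypes with the CST #9733 antibodies, also reached further, with 0.20 at 50 kb and 0.13 at 100 kb. On single arms the correlation at 50 kb ran between −0.071 and 0.069 for the H3K27me2 difference and between 0.090 and 0.26 for the H3K27me3 difference. On the scaffolds neither difference reached past the window, with correlations at 50 kb of −0.032 for H3K27me2 and 0.020 for H3K27me3. These values rest on 23588 pairs of arm windows at 50 kb, many of which overlap each other, and are descriptions of single profiles.

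**Figure D2:**
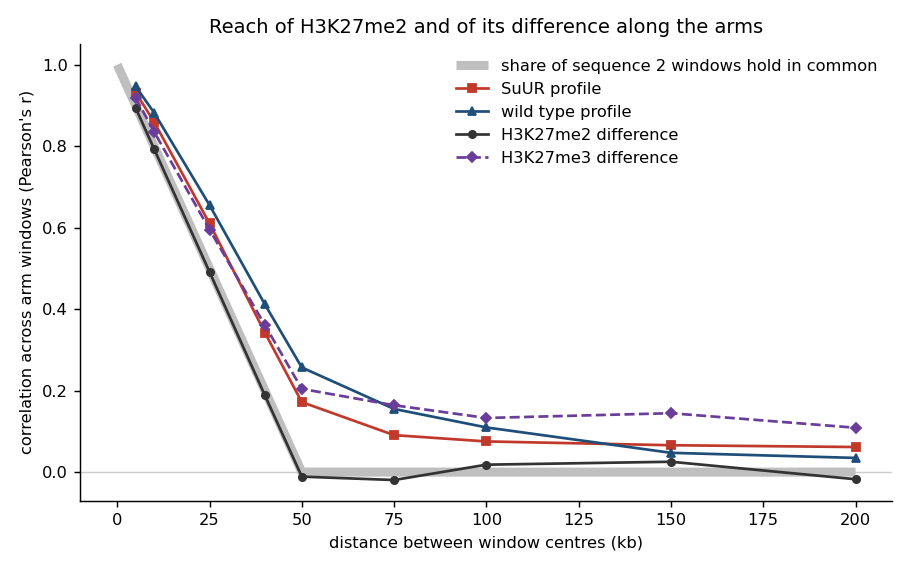
Pearson's correlation between arm windows (vertical axis) against the distance between their centres in kb (horizontal axis) for the SuUR and wild type H3K27me2 profiles, their difference and the H3K27me3 difference; the grey band is the share of sequence that 2 windows have in common. The H3K27me2 difference follows the band and is at −0.011 at 50 kb, whereas the profiles and the H3K27me3 difference stay above 0.

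The longest run on any arm was higher in SuUR and lay on 2L (2L:17800001-17930000, 17 windows). H3K27me2 there ranged between 0.105 and 0.87 in SuUR glands and between −0.83 and −0.3 in wild type glands. The run was chosen for a difference of 0.5 or more in every window, so the separation of these ranges is largely set by that choice. The means were 0.46 in SuUR and −0.53 in wild type, a difference of −0.99, or 1.99-fold. The largest gap was at the window centred on 17830000, with 0.81 in SuUR and −0.64 in wild type. Among all windows of a genotype, the mean level corresponded to percentile 94.95 in SuUR and 2.43 in wild type. The region was thus among the richest in one profile and among the poorest in the other. In the windows centred 50 to 150 kb outside the run the mean was −0.016 in SuUR and 0.051 in wild type. H3K27me3 over the run was 0.23 in SuUR and 0.27 in wild type.

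The longest run of 2L that was higher in wild type overlapped its edge (2L:17750001-17835000, 8 windows). There H3K27me2 averaged −0.105 in SuUR and 0.70 in wild type, and the peak difference, 1.015, was at 17795000 with −0.235 in SuUR and 0.78 in wild type. Only 15 kb separate the last centre of this run from the first centre of the run higher in SuUR. Within that distance the difference turned from 0.605 at 17810000 to −0.99 at 17825000. A further run higher in wild type lay at 2L:17610001-17690000 (7 windows), with a mean of 0.17 in SuUR and 0.90 in wild type. In this stretch high values thus lay at different positions in the SuUR and wild type profiles. The windows centred on 17810000 and 17825000 overlap in sequence, and each genotype has 1 profile. Whether the mark itself differed in position was not tested.

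The megabase that holds these runs was the densest of the arms. Between 17 and 18 Mb of 2L, 53 of 200 windows were past 0.5, 31 higher in SuUR and 22 higher in wild type, and the SD of the difference was 0.47, against a median of 0.21 over the 114 complete megabases. Its mean difference was only −0.038, so the opposite runs nearly cancelled. The next densest megabase, between 18 and 19 Mb of 3L, held 25 windows past 0.5, and the median megabase held 4. The mean difference of a megabase ran between −0.13 and 0.14, with 56 of the 114 higher in SuUR and 58 higher in wild type, and 112 of them within 0.1 of 0.

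The second run on the arms in this direction was again on 2L (2L:17045001-17140000, 10 windows), where SuUR averaged 0.09 and wild type −0.67. The value in SuUR was near the middle of the distribution (percentile 61.3), and that of wild type was among the lowest (percentile 0.97). H3K27me3 over the same windows was −0.14 in SuUR and 0.27 in wild type. The third was the longest such run on 3L (3L:10230001-10325000, 10 windows), where the roles differed: SuUR was high at 0.62 (percentile 97.4) and wild type was average at −0.026 (percentile 42.1). Its H3K27me3 was 0.39 in SuUR and 0.23 in wild type.

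The remaining arms had shorter runs higher in SuUR, and where runs tied in length the one with the larger mean difference is described first. On X one of the longest (X:21740001-21825000, 8 windows) averaged 0.14 in SuUR and −0.86 in wild type, a difference of −0.995. All 8 of its windows lay within 50 kb of a gap, a place where the profiles hold no windows. H3K27me3 differed there in the other direction, at −0.35 in SuUR and 1.18 in wild type. A run of equal length on X (X:15190001-15275000, 8 windows) had no window beside a gap, and averaged 0.20 in SuUR and −0.425 in wild type. On 2R the longest (2R:15205001-15285000, 7 windows) averaged 0.59 in SuUR and −0.13 in wild type. On 3R no run exceeded 4 windows, and of those that reached 4 the run with the larger difference (3R:4710001-4775000) had 0.51 in SuUR and −0.16 in wild type. On chromosome 4 the longest had 3 windows (4:565001-625000), with 0.17 in SuUR and −0.40 in wild type.

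The longest run higher in wild type lay on 3L (3L:10985001-11095000, 13 windows). H3K27me2 ranged between −0.73 and −0.29 in SuUR and between −0.165 and 0.39 in wild type. The means were −0.59 in SuUR and 0.18 in wild type. Here too the separation of the ranges is largely set by how the run was chosen. The largest difference, 0.965, was at 11030000, with −0.575 in SuUR and 0.39 in wild type. The SuUR level was among the lowest of its profile (percentile 1.63), whereas the wild type level was moderate (percentile 74.2). In the windows centred 50 to 150 kb outside the run H3K27me2 averaged −0.10 in SuUR and −0.15 in wild type. Inside the run SuUR was thus below its own surroundings and wild type above its own. H3K27me3 over the run was 0.19 in SuUR and 0.22 in wild type. The SuUR gene is itself on 3L, and its position relative to this run was not analysed here, so a difference tied to the mutated locus or its linked chromosome cannot be told apart from one elsewhere in the genome.

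**Figure D3:**
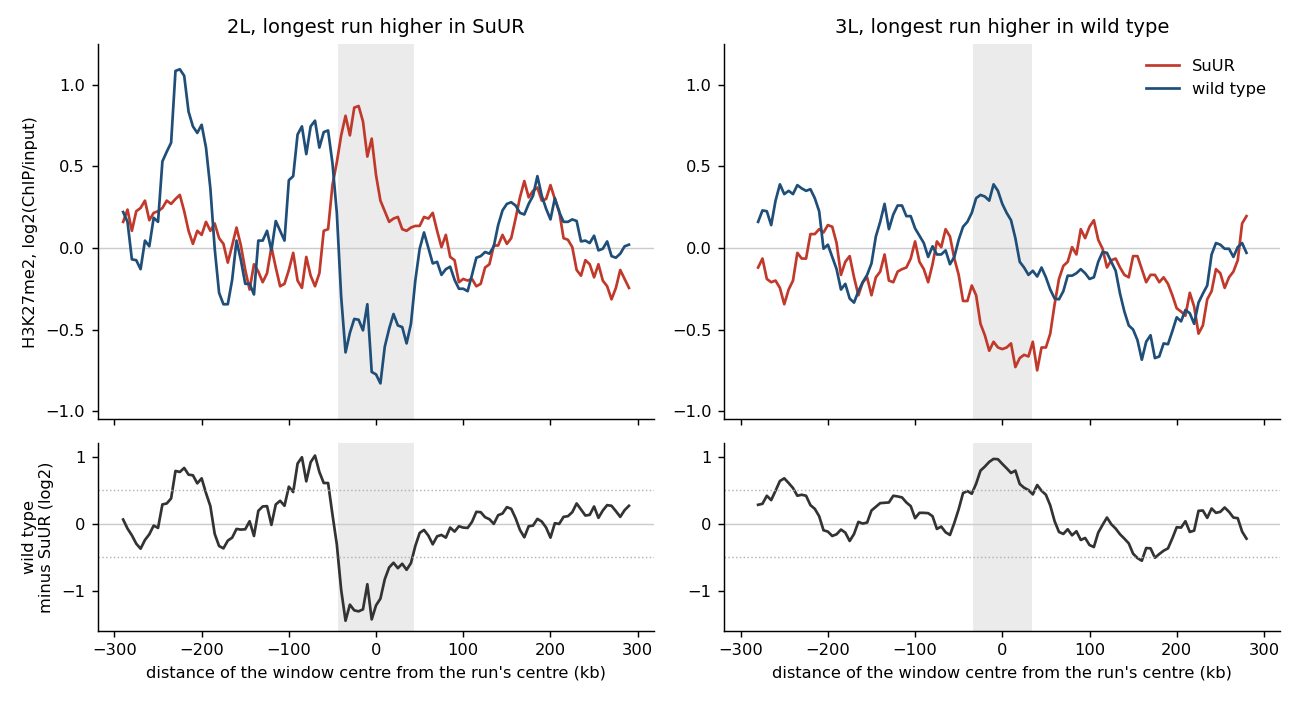
Upper panels, H3K27me2 (log2 of ChIP over input) in SuUR and wild type by distance of the window centre from the centre of the run in kb; lower panels, wild type minus SuUR with dotted lines at 0.5 in size; grey shading marks the centres of the run. On 2L (left) SuUR averages 0.46 and wild type −0.53 inside the run, which follows a block of high wild type signal; on 3L (right) SuUR averages −0.59 and wild type 0.18.

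The other long run higher in wild type was also on 3L (3L:18345001-18445000, 11 windows), with −0.17 in SuUR and 0.40 in wild type. Its H3K27me3 was 0.52 in SuUR and 0.54 in wild type. On 3R the longest run (3R:12675001-12755000, 7 windows) averaged −0.11 in SuUR and 0.52 in wild type, and here H3K27me3 was very high in both, at 2.06 in SuUR and 2.17 in wild type. A region with strong H3K27me3 in both genotypes thus held a local H3K27me2 difference.

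On X the longest runs had 6 windows. The one with the larger difference (X:20640001-20715000) averaged −0.24 in SuUR and 0.44 in wild type. The other (X:8515001-8590000) averaged −0.60 in SuUR and −0.025 in wild type, and its H3K27me3 was high at 2.34 in SuUR and 1.98 in wild type. The levels behind runs of equal length thus differed. On 2R the longest runs had 5 windows, with −0.36 in SuUR and 0.25 in wild type at 2R:4180001-4250000, and −0.42 in SuUR and 0.18 in wild type at 2R:19205001-19275000. On chromosome 4 only single windows were higher in wild type, the one with the largest difference being 4:25001-75000, with −0.465 in SuUR and 0.16 in wild type. Apart from the 2 runs on 3L, no run of the arms in this direction was longer than 8 windows.

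Without any threshold, runs of one sign were longer and shallower. The longest stretch higher in SuUR on the arms (2L:12965001-13315000, 61 windows) averaged 0.048 in SuUR and −0.24 in wild type. The longest stretch higher in wild type (2L:315001-660000, 60 windows) averaged −0.11 in SuUR and 0.13 in wild type. Neither reached 0.5 in any of its windows, with the largest differences at −0.495 and 0.485.

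The largest single differences on the arms were few, and those of 1 or more lay on 2L and X. Just below that cut were −0.99 on 2R and −0.975 on 3L, and the largest on 3R was −0.79. A difference of 1 or more, which is 2-fold, was found in 22 windows at 9 places, 16 of them higher in SuUR and 6 higher in wild type. The largest was a window on X (X:21545001-21595000) with −0.15 in SuUR and 1.865 in wild type. No neighbouring window reached 1 there, and it was the only arm window without a matched H3K27me3 value. The next largest was a window on 2L (2L:21415001-21465000) with −0.83 in SuUR and 0.855 in wild type. Of the 22 windows, 9 belonged to the stretch 2L:17770001-17895000 described above, and 8 lay within 50 kb of a gap in the list of windows.

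Windows beside such gaps had wider differences in general. Of the 100 arm windows within 50 kb of a gap, 34 (34.0%) were past 0.5, against 670 of 23576 other arm windows (2.84%), and their SD was 0.55, against 0.226. On the scaffolds the shares were 56.6% beside gaps and 33.9% elsewhere. Among the 40 arm runs of 5 or more windows, 3 had windows beside a gap. These were the run on X named above, 2L:21385001-21465000 (7 windows, all beside a gap) and 3L:19680001-19750000 (5 windows, all beside a gap). The runs of 11 or more windows, on 2L and 3L, had no window beside a gap. The part that gaps play in the differences beside them was not tested.

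The longest runs of the scaffolds lay on U. The longest higher in SuUR (U:2070001-2235000, 24 windows) averaged 0.62 in SuUR and −0.33 in wild type. The longest higher in wild type (U:3880001-4020000, 19 windows) averaged −0.082 in SuUR and 1.08 in wild type. Directly after it came a run of the opposite sign (U:4020001-4165000, 20 windows) with 0.42 in SuUR and −0.56 in wild type. As on 2L, opposite runs thus lay side by side. Scaffold U joins unplaced contigs end to end, so its coordinates do not give neighbourhood in the genome.

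The difference had little relation to the level of H3K27me2. Arm windows were ranked by the mean of both genotypes and divided into deciles. The mean difference of a decile ran between −0.019 in the highest decile and 0.011, while the SD ran between 0.217 and 0.251. The normalization removes any overall trend of the difference with this mean over all windows, so its flatness is partly built in. Past 0.5 were 4.82% of windows in the highest decile and between 2.24% and 3.21% in the other 9. The richest decile therefore held the largest share of such windows.

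When windows were ranked by a single genotype the trends were steep and opposite. Ranked by SuUR alone, the mean difference was 0.17 in the lowest decile and −0.24 in the highest. Ranked by wild type alone, it was −0.16 in the lowest decile and 0.22 in the highest. Such slopes arise whenever a value is ranked by one of the terms of its own difference, so they are given only to show that the ranking decides the trend.

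The level of H3K27me3, which is not a term of the difference, was also used to rank the windows. The mean H3K27me2 difference was −0.015 in the lowest decile of H3K27me3 and 0.035 in the highest, and the share past 0.5 was 2.45% and 5.41%. Over the arms together, higher H3K27me3 thus went with more windows past 0.5, and with a mean difference that was small beside its SD of 0.26. With windows of each arm divided into 5 classes, the share was higher in the top class than in the lowest on 2L, 3L, 3R and X, whereas on 2R it was 2.61% in both.

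**Figure D4:**
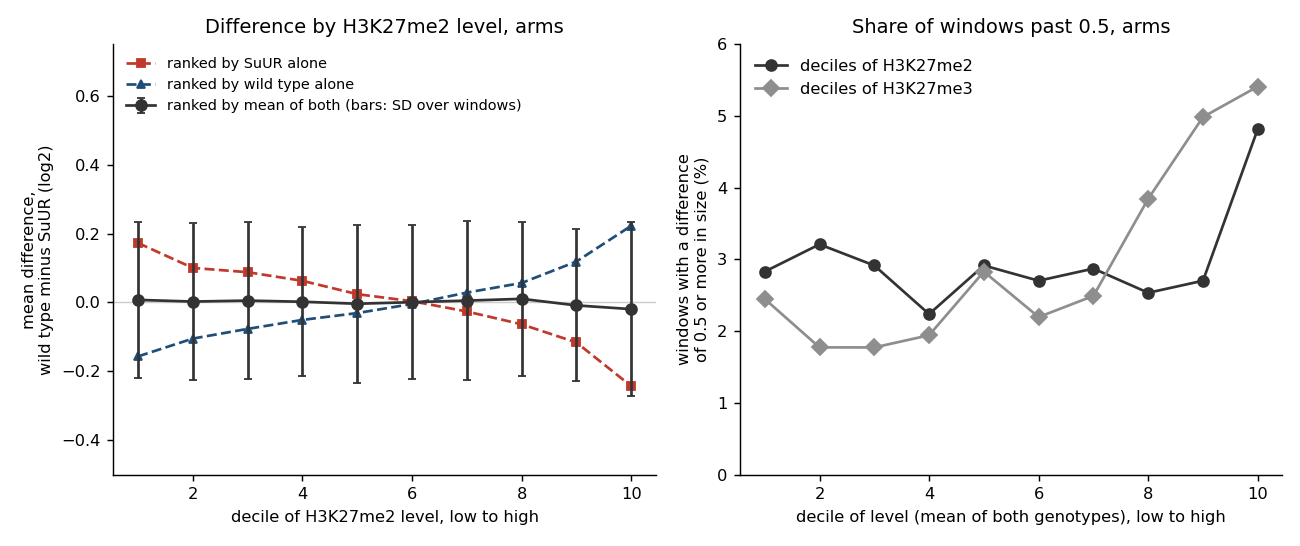
Left panel, mean H3K27me2 difference (wild type minus SuUR, log2) by decile of H3K27me2 level on the arms, ranked by SuUR alone, by wild type alone or by the mean of both, with bars showing 1 SD over windows for the mean; right panel, percent of arm windows with a difference of 0.5 or more in size by decile of H3K27me2 or H3K27me3 level. The mean stays between −0.019 and 0.011 when ranked by both genotypes, and the share past 0.5 is highest in the top deciles (4.82% and 5.41%).

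Toward the centromere H3K27me2 was higher in both genotypes on 2L, 2R, 3L and X, but not on 3R. In the last 1 Mb of the arms it averaged 0.17 in SuUR and 0.156 in wild type, whereas in the rest it averaged −0.019 in SuUR and −0.018 in wild type. The end of 3R averaged −0.085 in SuUR and −0.055 in wild type, below the rest of that arm at −0.014 in SuUR and −0.011 in wild type. The difference was −0.017 in these ends (SD 0.268) and 0.0010 elsewhere (SD 0.226). It was −0.084 at the end of 2L, −0.043 on 3L, 0.030 on 3R, 0.0080 on 2R and 0.0073 on X, so that it had no common sign. Past 0.5 were 5.25% of the end windows and 2.87% of the rest, although on 2R the shares were 1.0% at the end and 2.24% in the rest. H3K27me3 at the ends averaged −0.14 in SuUR and 0.10 in wild type, a difference of 0.246, against −0.086 elsewhere. By arm this H3K27me3 difference was 0.57 on 3L, 0.37 on 2L, 0.23 on X and 0.13 on 2R, but −0.066 on 3R.

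On the arms the H3K27me2 and H3K27me3 differences were unrelated window by window, with r = −0.0084 across 23675 overlapping windows. On chromosome 4 r was −0.37 across 255 overlapping windows. Over the scaffolds together it was 0.038, and on single scaffolds it ran between −0.16 on 3LHet and 0.28 on 2LHet. H3K27me3 was higher in wild type in 41.9% of the arm windows past 0.5 that were higher in SuUR for H3K27me2. The share was 48.9% of those higher in wild type, and 37.1% of all arm windows. The profiles were normalized over all windows, and the H3K27me3 difference averaged −0.072 on the arms and 0.452 on the scaffolds. Its sign on the arms is therefore relative to the scaffolds. With the arms normalized alone, its median over all arm windows was −0.01. Among the runs of 5 or more windows H3K27me3 was higher in wild type in 6 of 21 runs higher in SuUR, with a median difference of −0.17. It was higher in wild type in 13 of 19 runs higher in wild type, with a median of 0.043, against a median of −0.075 over all arm windows. Runs of either direction thus included both signs of the H3K27me3 difference, with medians on either side of that of all arm windows.

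**Figure D5:**
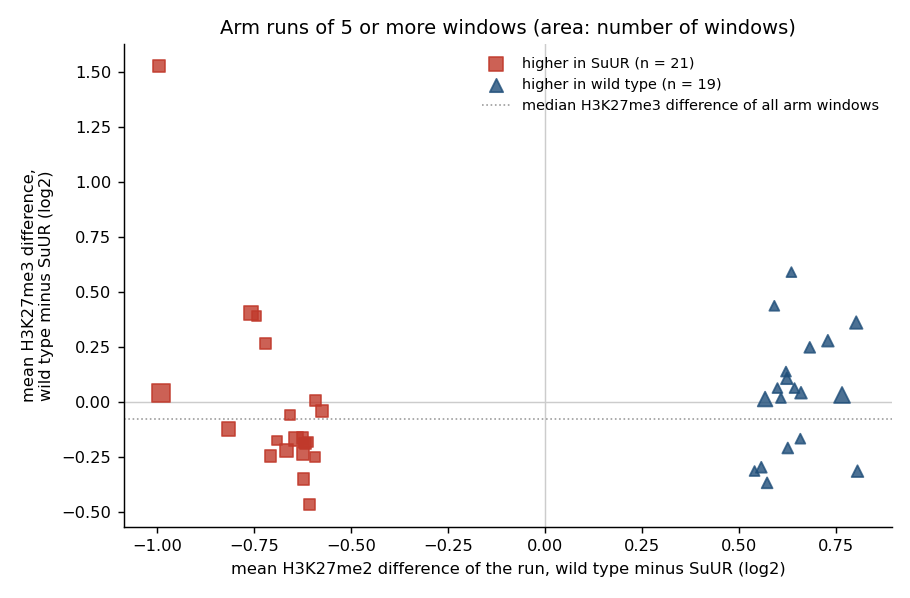
Mean H3K27me3 difference against mean H3K27me2 difference (both wild type minus SuUR, log2) for each arm run of 5 or more windows, 21 higher in SuUR (squares) and 19 higher in wild type (triangles), with area proportional to the number of windows. H3K27me3 differences of both signs occur on each side, and 1 run on X stands apart with a H3K27me3 difference of 1.53.

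The windows past 0.5 were also set against regions listed by the authors: SuUR-sensitive regions (SSRs), where H3K27me3 measured on arrays was lower in SuUR, under-replicated regions, and SNRs, H3K27me3-rich regions that keep the mark in SuUR. The SSRs held 26.7% of all arm windows, 33.0% of those past 0.5 and higher in SuUR, and 47.1% of those higher in wild type. Seen from the SSRs, 2.06% of their windows were higher in SuUR and 2.31% higher in wild type, against 1.66% higher in SuUR and 1.31% higher in wild type over all arm windows. Most windows past 0.5 lay outside SSRs in both directions, but this depended on the threshold and scale. At a threshold of 0.3 the SSRs held 25.7% of the windows higher in SuUR and 38.1% of those higher in wild type. At 0.75 they held 51.0% of those higher in SuUR and 39.4% of those higher in wild type. With a difference of 0.5 on the linear ChIP/input scale they held 52.0% of those higher in SuUR and 65.7% of those higher in wild type. Under-replicated regions held 21.9% of all arm windows, 33.0% of those past 0.5 and higher in SuUR, and 39.0% of those higher in wild type. SNRs held 5.36%, 3.55% and 8.71%. The runs of 2L around 17.8 Mb lay in SSRs and in under-replicated regions, whereas the longest run of 3L overlapped an under-replicated region and an SNR but no SSR.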

How the data were processed

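The authors mapped reads to dm3 with MOSAIK and formed RPM values of ChIP and input. The deposited values are log2 ratios of ChIP over input in windows of 50 kb every 5 kb, quantile normalized between genotypes; the sorted values of the genotypes were checked and differed by 0 at most. Whether libraries were pooled is not given in the sources used here. The paper's methods give 25 pairs of glands and 3 biological replicates for ChIP-seq, whereas the labels give 20 pairs and list 1 ChIP library per genotype; each profile was treated as 1 measurement. The given position was taken as the window's centre.

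SuUR and wild type values were joined by chromosome and centre, and H3K27me3 was matched for 27585 windows. A run was a series of consecutive windows past 0.5 with one sign. The search was tested on simulated data with planted runs and far less noise than these profiles, which checks the code only. How often such runs arise by chance was not tested. Named regions were the longest runs per direction on each arm and chromosome 4, the 3 longest over the arms and the longest on the scaffolds, with ties to the larger mean difference; windows of largest size and other runs were named after their values were seen. No dm3 annotation or genome was used, so genes and sequences are not given. The members, lists, thresholds and parts were chosen with earlier results of these data known. Alternatives changed the threshold, scale, centring, normalization, window spacing and run rule. Embryo libraries were not analysed here. Tools were Python 3.11.15 with statsmodels 0.14.6 for lowess, matplotlib 3.10.9, pandas 2.3.3 and numpy 2.4.6.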

Additional observations from a re-analysis of the deposited data

How the results depend on the processing

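No paired analysis was possible because each genotype has 1 H3K27me2 profile and the gland libraries carry no replicate numbers. The counts depended most on the threshold. At 0.3 there were 2114 arm windows higher in SuUR and 2093 higher in wild type, with 21 long runs in each direction. At 0.75 there were 51 windows higher in SuUR and 33 higher in wild type, with 1 and 0 long runs. With a difference of 0.5 on the linear ChIP/input scale 75 windows were higher in SuUR and 67 in wild type, with 1 and 0 long runs. Centring each chromosome on its median difference left 1 long run higher in wild type, and bridging up to 2 windows gave 3 higher in SuUR. With a minimum of 5 windows the runs numbered 21 higher in SuUR and 19 higher in wild type, and with 21 windows 0 in both directions. Leaving out windows within 50 kb of a gap, added after seeing the data, kept each count of windows and long runs within 1.5 times. Ranking by one genotype set the gap in mean difference between the highest and lowest decile, which was −0.42 for SuUR alone, 0.38 for wild type alone, 0.050 for H3K27me3 and −0.027 for the mean of both. The SD ratio of those deciles was 0.87 for wild type alone, against 1.11. On the linear scale SSRs held 52.0% of windows higher in SuUR and 65.7% of those higher in wild type, and under-replicated regions held 64.2% of the second; at 0.75, SSRs held 51.0% and SNRs 0% of those higher in SuUR. With windows wholly inside, SNRs held 0.25% of windows higher in SuUR, against 1.76% of all. With H3K27me3 normalized over the arms alone, its median difference was −0.089 in runs higher in SuUR and 0.13 in runs higher in wild type. Over all arm windows it was then −0.01. A correction for GC content was not run, because no dm3 genome was used. Neither depth nor replicate error can be set against any of these values.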
